A study of Mus musculus with 26 samples.

Results

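The triglyceride assembly enzymes described here are 10 genes of the route from dihydroxyacetone phosphate to triglyceride: Gpd1, Gpam, Agpat1, Agpat2, Agpat3, Lpin1, Lpin2, Lpin3, Dgat1 and Dgat2. They were found by their gene names on the array, which held 24 probes for them among 56605 probes and 37074 gene names. Of these probes, 23 passed the filter on dim signals, with at least 1 probe for each of the 10 genes, and all 23 were well above background on all 26 arrays. The array measured RNA from inguinal subcutaneous white adipose tissue, with 1 array per mouse and a single dye.

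All groups went through the same feeding regimen, a fast of 24 h before 18 h on their usual diet with 20% glucose in the drinking water, used to activate ChREBP, the glucose-responsive transcription factor encoded by Mlxipl. Total ChREBP-KO mice (n = 7) are Mlxipl-null and lack the α and β isoforms. ChREBPβ-deficient mice (n = 5) carry a CRISPR/Cas9 deletion of the exon that only the shorter β isoform uses. Each was compared with WT mice of its own line (n = 7 in each), and per the study's methods all were male C57BL6/J mice. Both deletions are present in the whole body, so adipocytes are not the only cells without the factor. The age of the mice was not given in the sources used here.

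In this pathway, a glycerol backbone is built and then loaded with fatty acids. Gpd1, the cytosolic glycerol-3-phosphate dehydrogenase, reduces a glycolytic intermediate to glycerol 3-phosphate. Gpam, the mitochondrial glycerol-3-phosphate acyltransferase, adds the first acyl chain to give lysophosphatidic acid, and the Agpat enzymes add the next one to give phosphatidic acid. The lipins, which are phosphatidic acid phosphatases, remove the phosphate to give diacylglycerol, and Dgat1 and Dgat2, which are unrelated in sequence, add the last acyl chain. Agpat2 is the main isoform of its step in adipose tissue, and its loss causes lipodystrophy in mice and in humans, as does loss of Lpin1 in mice.

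The sequences of 4 probes are shown first. Those for Gpd1, Dgat1 and Lpin1 read genes whose levels differed between total ChREBP-KO mice and their WT mice. That for Lpin3 is shown beside Lpin1 because both read the same conserved stretch. Coordinates are in mm9, the build of the array files. The less bright Gpd1 probe starts at base 403 of the transcript, in the coding sequence, and lies at chr15:99550555-99550614 on the plus strand. The Dgat1 probe starts at base 1204 and lies at chr15:76333128-76333274 on the minus strand, a span longer than its 60 bases because it crosses an intron. The last pair reads the conserved amino-terminal part of 2 lipins. The Lpin1 probe lies at chr12:16587593-16587652 on the minus strand and the Lpin3 probe at chr2:160717941-160718000 on the plus strand. Capitals mark the 19 bases over which both align, of which 16 are identical.
Gpd1 (A_66_P137409): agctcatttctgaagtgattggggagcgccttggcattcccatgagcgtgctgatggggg
Dgat1 (A_52_P456134): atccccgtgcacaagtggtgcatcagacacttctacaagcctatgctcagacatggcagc
Lpin1 (A_55_P2883270): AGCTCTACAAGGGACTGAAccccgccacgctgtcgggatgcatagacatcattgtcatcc
Lpin3 (A_55_P2929291): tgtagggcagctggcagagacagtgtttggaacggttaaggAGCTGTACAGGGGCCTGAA
This Lpin3 probe was the only member probe that was not tested, since it was well above background on just 5 of 26 arrays, 1 or 2 in each group. The levels of Lpin3 given below come from a probe near the end of the transcript, at base 3205.

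Values below are log2 of the median spot intensity after quantile normalization between arrays, and a difference of 1 on this scale is a 2-fold difference in intensity. Each gene is given by its brightest probe. Levels are compared between groups within a probe, never between genes, because probes differ in how strongly they bind. Fold changes and p-values come from a limma fit to all 26 arrays, p-values were adjusted over all 38832 tested probes, and a difference was called at an adjusted p of 0.05. The arrays had median spot intensities of 59 to 108 against median backgrounds of 15 to 23, no spot was saturated, and the number of arrays limits the precision. The targeted gene followed the labels in its brightest probe. The brightest Mlxipl probe was at 13.63 to 13.95 in total ChREBP-KO mice and 15.77 to 16.53 in their WT mice, and at 13.93 to 14.36 in ChREBPβ-deficient mice and 15.24 to 16.18 in theirs. Of the other two Mlxipl probes, A_55_P2728555 was called lower in total ChREBP-KO mice (-0.90, adjusted p = 2.25e-06) and not in ChREBPβ-deficient mice (-0.68, adjusted p = 0.054), although neither pair of groups overlapped. A_55_P2045158 was called in neither, with differences of -0.13 (adjusted p = 0.158) and 0.04 (adjusted p = 0.97). Which probes read the deleted parts was not tested.

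The enzymes called between total ChREBP-KO mice and their WT mice went in both directions. Gpd1, Gpam, Agpat3 and Lpin1 were lower in total ChREBP-KO mice, and Lpin3 and Dgat1 were higher. Agpat1, Agpat2, Lpin2 and Dgat2 did not pass the test. These 6 of 10 calls (2 higher, 4 lower) have to be read against the whole array, where 45.8% of 25407 genes were called in this comparison, 25.8% higher and 20.1% lower. The median log2 difference over the 10 genes was 0.05, the same as the median of 0.05 over all genes. Levels of KO and WT mice did not overlap for Gpd1, Lpin3 and Dgat1, as for 14.8% of all genes.

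**Figure D1:**
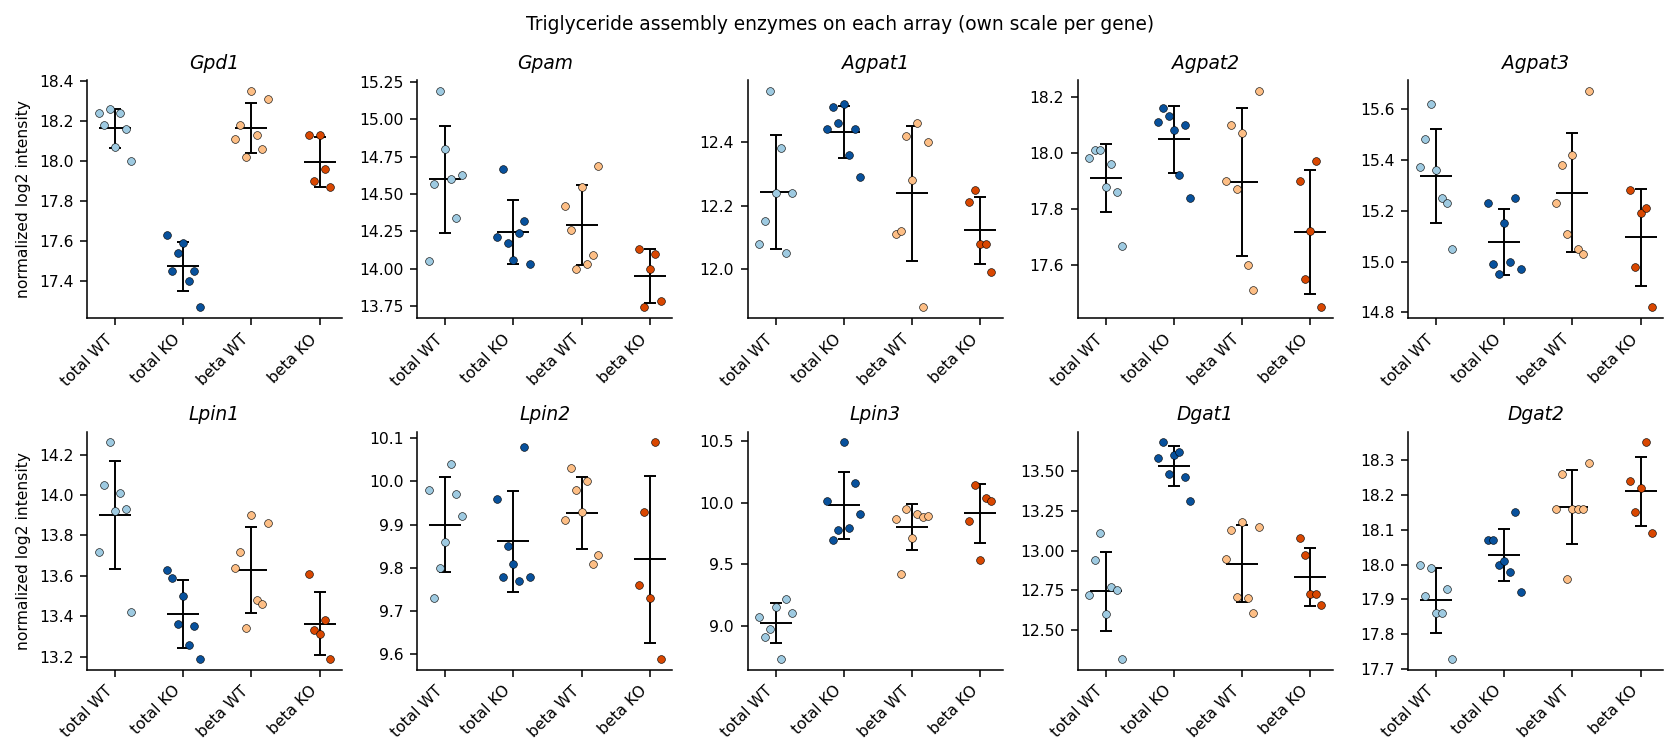
Normalized log2 intensity of the brightest probe of each of the 10 enzymes on each of 26 arrays, 1 point per mouse, with the mean (horizontal bar) and SD (whiskers) of each group, on a scale of its own for each gene. In Gpd1 the total ChREBP-KO mice sit at 17.27 to 17.63, below the mice of all other groups, and in Dgat1 they sit at 13.31 to 13.68, above them.

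Gpd1, which supplies the glycerol backbone, fell the most. In total ChREBP-KO mice the lowest, median and highest arrays were at 17.27, 17.45 and 17.63. In their WT mice they were at 18.00, 18.18 and 18.26. Every KO mouse was below every WT mouse, and also below every mouse of the ChREBPβ line, whose lowest array was at 17.87. The mean was 17.48 ± 0.12 (SD, n = 7) in KO mice and 18.16 ± 0.10 (SD, n = 7) in WT mice, a log2 difference of -0.69 (SE 0.07, adjusted p = 8.75e-09) that left 62.1% of the WT intensity. The probe in the coding sequence, printed above, fell by 1.27 on the log2 scale (SE 0.17, adjusted p = 1.13e-06), to 41.6% of WT. The brightest probe ranked between 13 and 102 among all probes on an array, a range in which quantile normalization forces the values of all arrays onto the same few steps. Within the 4 wash batches of the labels, the Gpd1 difference ran from -0.75 to -0.65. Each batch held only 1 or 2 arrays of either group, here and for the other enzymes in this comparison.

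Gpam, whose enzyme commits glycerol 3-phosphate to lipid synthesis, was lower by less and with overlap. Its KO arrays had a lowest, median and highest level of 14.03, 14.21 and 14.67, and its WT arrays of 14.05, 14.60 and 15.19. The WT mice were more spread than the KO mice, and most mice of both groups lay where the groups overlap. The log2 difference was -0.35 (SE 0.14, adjusted p = 0.041). The other Gpam probe, A_52_P11388, had a difference of 0.12 (SE 0.22, adjusted p = 0.676), so the call rested on 1 of the 2 probes. It held in 7 of 18 other settings of processing or fit, among which the differences ran from -0.44 to 0.18. It was also lost when any 1 of 10 mice was left out (KO replicates 1, 3, 4, 5 and 8 and WT replicates 3, 4, 5, 6 and 8), with adjusted p between 0.053 and 0.107. Within wash batches the difference ran from -0.99 to 0.36.

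Of the 3 Agpat genes, which encode lysophosphatidic acid acyltransferases, Agpat3 passed the test. Its KO arrays had a lowest, median and highest level of 14.95, 15.00 and 15.25 and its WT arrays of 15.05, 15.36 and 15.62. The groups overlapped between 15.05 and 15.25. The log2 difference was -0.26 (SE 0.10, adjusted p = 0.0335), and the other probe, A_52_P523569, which reads the transcript further towards its end, gave -0.45 (SE 0.09, adjusted p = 0.000171). The call of the brightest probe held in 13 of 18 other settings of processing or fit. Without any 1 of 7 mice (KO replicates 2, 3, 5 and 8 and WT replicates 1, 3 and 4), the brightest probe missed the threshold, with adjusted p of 0.0501 to 0.0782.

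Agpat1 and Agpat2 were not called. Agpat1 was at 12.29 to 12.52 in KO and 12.05 to 12.56 in WT mice, a difference of 0.19 (95% CI 0.02 to 0.36, adjusted p = 0.0687), which passed the threshold without KO replicate 8 (0.21) or WT replicate 4 (0.24). Agpat2 was at 17.84 to 18.16 in KO and 17.67 to 18.01 in WT mice, a difference of 0.14 (95% CI -0.06 to 0.34, adjusted p = 0.258). The other Agpat2 probe, A_51_P238563, gave 0.32 (adjusted p = 0.0546).

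**Figure D2:**
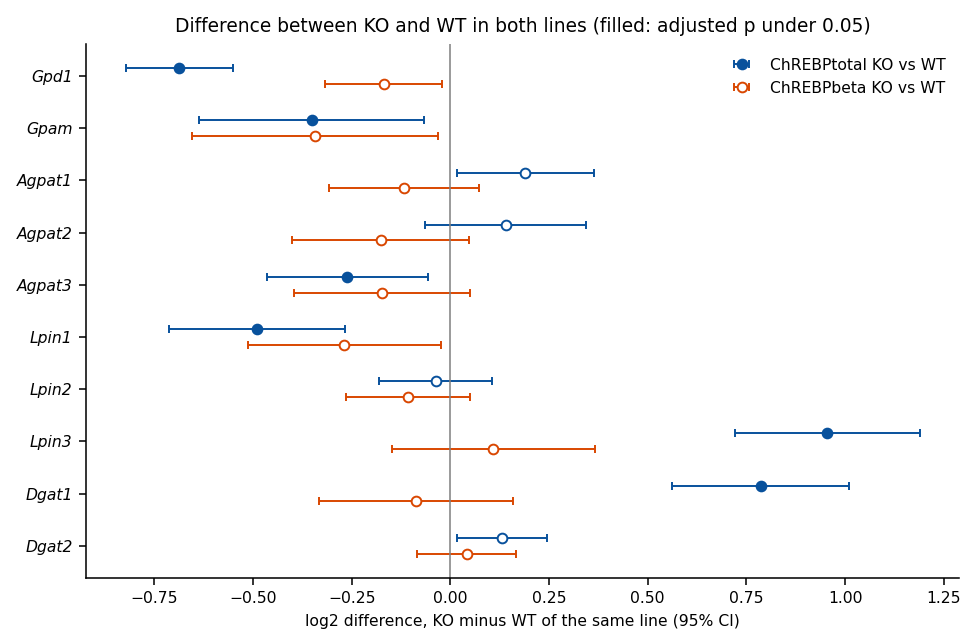
Log2 difference between KO and WT mice of the same line for the brightest probe of each enzyme, with its 95% confidence interval, in the total ChREBP line (blue) and the ChREBPβ line (orange). Filled points passed an adjusted p of 0.05, which 6 of 10 did in the total ChREBP line and 0 of 10 in the ChREBPβ line.

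The lipins went separate ways. Lpin1, the lipin that adipocytes need to make fat, was lower in KO mice. Its lowest, median and highest KO arrays were at 13.19, 13.36 and 13.63, and its WT arrays at 13.42, 13.93 and 14.26. All but the lowest WT mouse lay above the whole KO group. The log2 difference was -0.49 (SE 0.11, adjusted p = 0.000675), or 71.2% of WT. The other 3 Lpin1 probes, including the one printed above, were called too, with differences from -0.57 to -0.44. The call held when any 1 mouse was left out but not with slides as fixed blocks (-0.44, adjusted p = 0.131), and within wash batches the difference ran from -0.76 to -0.30.

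Lpin3 rose, and had the largest difference of the 10 genes. Its KO arrays had a lowest, median and highest level of 9.70, 9.91 and 10.49, and its WT arrays of 8.73, 9.07 and 9.22. Every KO mouse was above every WT mouse. The log2 difference was 0.95 (SE 0.11, adjusted p = 2.7e-07), a 1.94-fold higher intensity. Within wash batches it ran from 0.71 to 1.26. Here the WT mice of the total ChREBP line were the group that stood apart, because the levels of both groups of the ChREBPβ line lay above theirs as well, at 9.42 to 10.14.

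Lpin2 did not pass the test in any of its 6 probes. The brightest was at 9.77 to 10.08 in KO and 9.73 to 10.04 in WT mice, a difference of -0.04 (95% CI -0.18 to 0.11, adjusted p = 0.691). The other 5 probes, which read different transcripts of the gene, gave differences from -0.19 to 0.15.

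Dgat1, an acyltransferase of the endoplasmic reticulum that completes triglyceride and also re-esterifies fatty acids, rose. Its lowest, median and highest KO arrays were at 13.31, 13.58 and 13.68 and its WT arrays at 12.32, 12.75 and 13.11. Every KO mouse was above every WT mouse and above every mouse of the ChREBPβ line, whose highest array was at 13.18. The mean was 13.53 ± 0.13 (SD, n = 7) in KO mice and 12.75 ± 0.25 (SD, n = 7) in WT mice, a log2 difference of 0.79 (SE 0.11, adjusted p = 2.62e-06) and 172.5% of the WT intensity. Within wash batches it ran from 0.42 to 1.00. Dgat2, which handles newly made fatty acids, was at 17.92 to 18.15 in KO and 17.73 to 18.00 in WT mice. Its difference of 0.13 (95% CI 0.02 to 0.25) missed the threshold (adjusted p = 0.0566), and passed it without KO replicate 8, WT replicate 1 or WT replicate 4 (0.15 in each). Dgat2 and Agpat2 were also among the 80 brightest probes on every array, where the range left by quantile normalization is narrow.

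**Figure D3:**
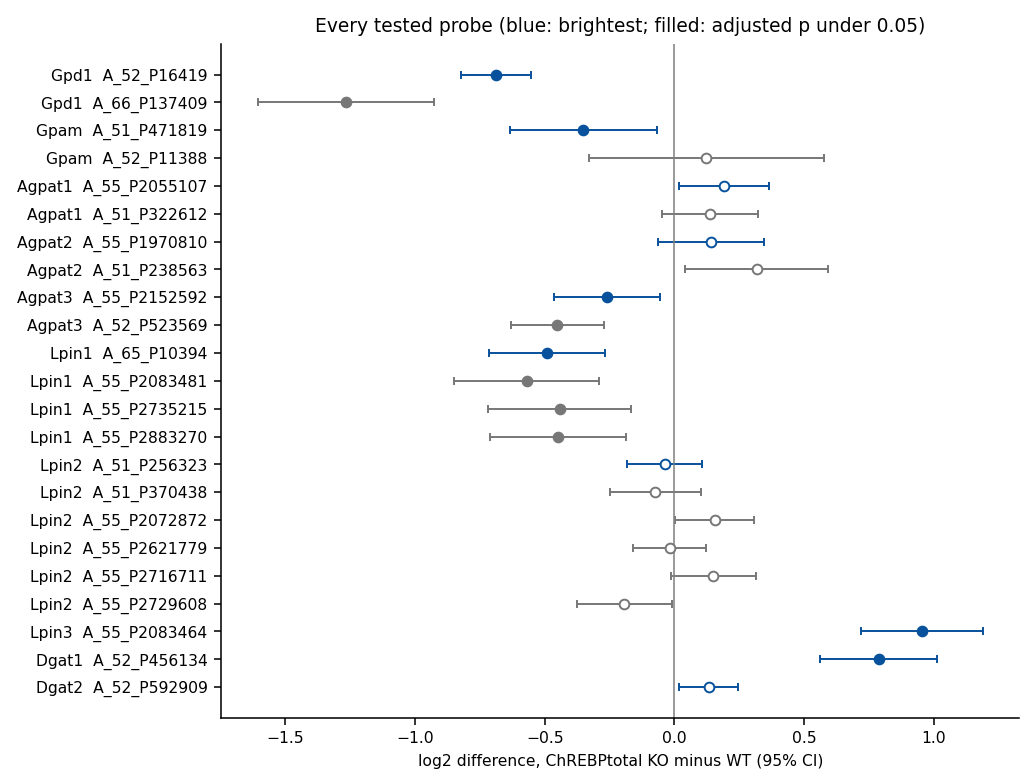
Log2 difference between total ChREBP-KO and WT mice for each of the 23 tested probes, with its 95% confidence interval, blue for the brightest probe of a gene and grey for the others, filled where adjusted p was under 0.05. The 4 Lpin1 probes lie together from -0.57 to -0.44, while the 2 Gpam probes lie on either side of 0.

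Marker levels of several cell types also differed between total ChREBP-KO mice and their WT mice. All 13 adipocyte markers were well above background on all 26 arrays, and 12 of 13 were called higher in total ChREBP-KO mice. The mean log2 level of the list was 15.69 to 15.88 in KO and 14.83 to 15.32 in WT mice. All 15 lymphocyte markers were called lower, with a list level of 7.78 to 11.20 in KO and 10.89 to 12.54 in WT mice. Of 8 brown or beige adipocyte markers, 5 were called lower and 1 higher, with a list level of 10.62 to 11.49 in KO and 11.29 to 13.52 in WT mice. Of 12 skeletal muscle markers, 4 were called higher, at a list level of 6.94 to 13.80 in KO and 6.68 to 12.55 in WT mice, and of 10 macrophage markers 4 were called lower (11.30 to 11.78 and 11.48 to 12.93). In RNA from whole tissue, fewer cells of a type and less RNA per cell cannot be told apart.

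**Figure D4:**
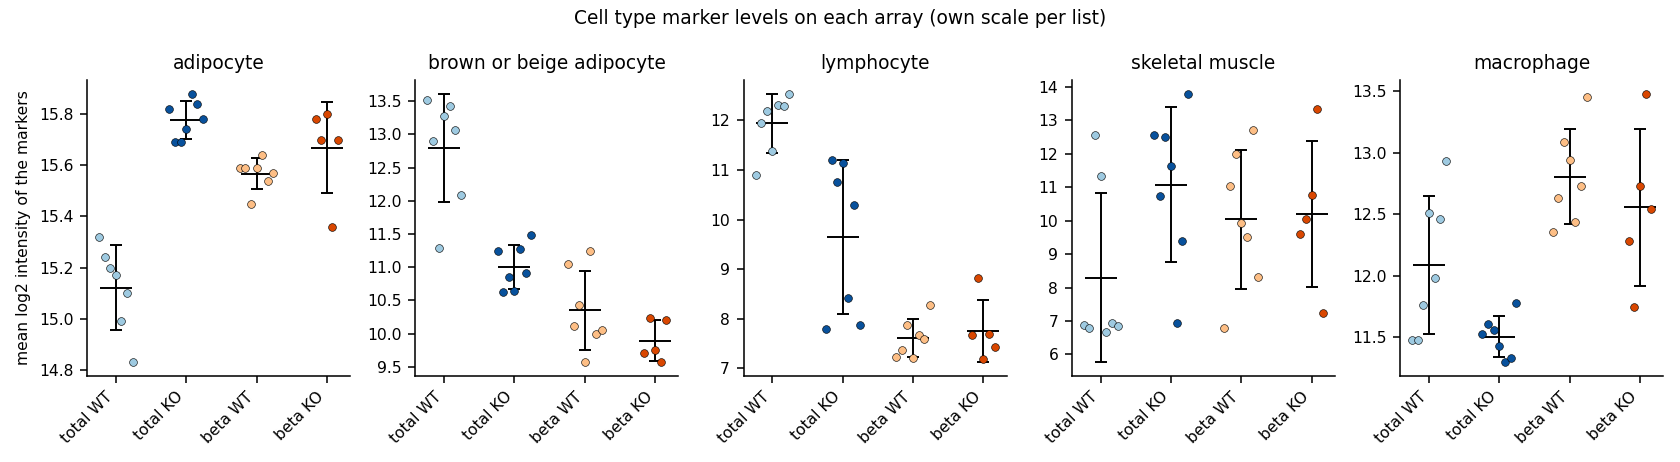
Mean log2 intensity of each cell type marker list on each of 26 arrays, 1 point per mouse, with the mean and SD of each group, on a scale of its own for each list. The adipocyte list does not overlap between total ChREBP-KO mice (15.69 to 15.88) and their WT mice (14.83 to 15.32), while both groups of the ChREBPβ line lie between 15.36 and 15.80.

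The enzymes differed in what was left of their difference when these list levels were added to the fit. Gpd1 stayed called in each case, at -0.78 with the adipocyte list, -0.54 with the brown or beige list and -0.74 with the lymphocyte and muscle lists. Dgat1 was at 0.22 (adjusted p = 0.658) and Lpin3 at 0.54 (adjusted p = 0.238) with the adipocyte list. Both stayed called with the brown or beige list (1.12 and 1.01) and with the lymphocyte and muscle lists (0.76 and 0.79). Lpin1 went the other way, to -0.99 with the adipocyte list, where it was called, and to -0.05 (adjusted p = 0.805) with the brown or beige list. Gpam and Agpat3 moved to 0.18 and 0.08 with the brown or beige list and were not called, while Agpat1 (0.45) and Agpat2 (0.44) were called with that list. Since the adipocyte list did not overlap between KO and WT mice, its level and the genotype cannot be told apart in the total ChREBP line. The brown or beige list overlapped only through WT replicate 1 (11.29) and KO replicate 7 (11.49). Its level and the genotype are thus hardly separated either, and the shifts with this list carry the same limit. The part of cell makeup in the differences was otherwise not tested.

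**Figure D5:**
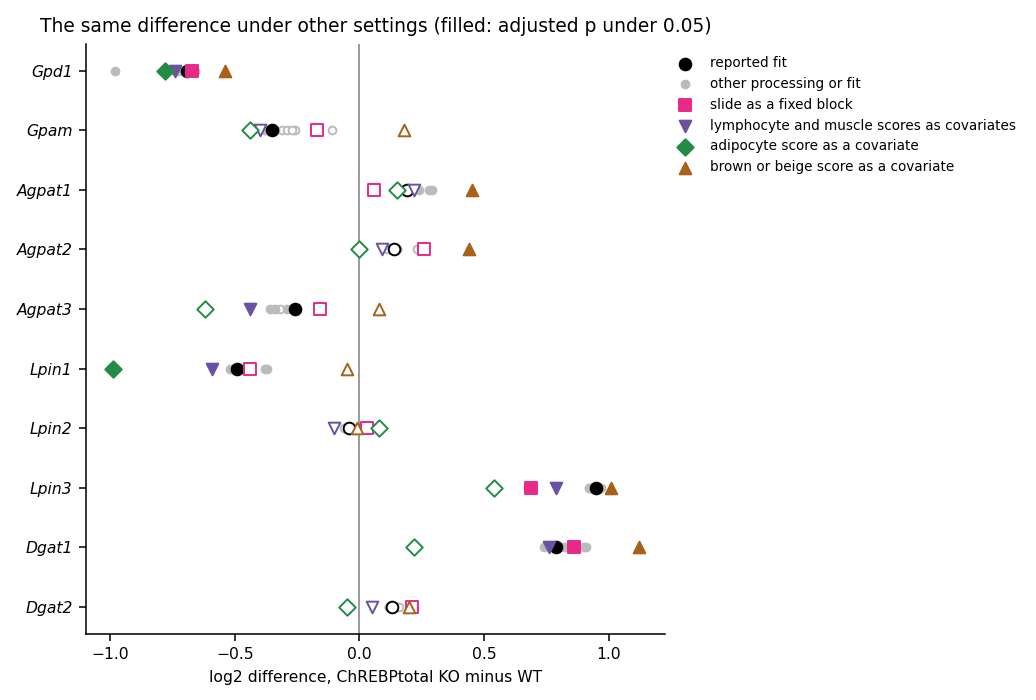
Log2 difference between total ChREBP-KO and WT mice for each enzyme under the reported fit (black) and 18 other settings of processing or fit, with the 3 fits that add marker levels and the fit with slides as blocks set apart by colour and shape, filled where adjusted p was under 0.05. Gpd1 is filled and below 0 under all of them, while Lpin1 lies near 0 with the brown or beige list and Dgat1 at 0.22 with the adipocyte list.

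Loss of the β isoform alone gave no called difference in these enzymes. In ChREBPβ-deficient mice, 0 of 10 enzymes passed the test against their WT mice in limma, on an array where 0.0512% of genes did. At an unadjusted p of 0.05, 3 of 10 passed (Gpd1, Gpam and Lpin1, all lower), and 7.8% of all genes did. The lowest adjusted p of the 10 was 0.558. The median log2 difference was -0.14, against 0.00 over all genes, and 8 of 10 genes were lower in the deficient mice.

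Gpd1 was at 17.87, 17.90, 17.96, 18.13 and 18.13 in the 5 ChREBPβ-deficient mice. Its lowest, median and highest WT arrays were at 18.02, 18.13 and 18.35. Of the deficient mice 3 of 5 were below the whole WT group and the other two were at its median, a difference of -0.17 (95% CI -0.32 to -0.02, adjusted p = 0.558). Gpam was at 13.74, 13.78, 14.00, 14.10 and 14.13 against 14.00, 14.26 and 14.69, a difference of -0.34 (95% CI -0.66 to -0.03, adjusted p = 0.573). Lpin1 was at 13.19, 13.31, 13.33, 13.38 and 13.61 against 13.34, 13.64 and 13.90, a difference of -0.27 (95% CI -0.51 to -0.02, adjusted p = 0.573). Of the 5 deficient mice, 2 lay below the whole WT group in Gpam and 3 in Lpin1, and the rest overlapped it. Within the 3 wash batches with both groups, the differences ran from -0.33 to -0.06 for Gpd1, from -0.61 to -0.21 for Gpam and from -0.44 to -0.21 for Lpin1. Each of these batches held 1 to 3 arrays of either group.

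Lpin3 and Dgat1, the genes that rose without both isoforms, had intervals around 0 here. Lpin3 was at 9.53, 9.85, 10.01, 10.04 and 10.14 in ChREBPβ-deficient mice, and at 9.42, 9.89 and 9.95 in the lowest, median and highest WT mice. The difference was 0.11 (95% CI -0.15 to 0.37, adjusted p = 0.918). Dgat1 was at 12.66, 12.73, 12.73, 12.97 and 13.08, against 12.61, 12.95 and 13.18. The difference was -0.09 (95% CI -0.33 to 0.16, adjusted p = 0.94). Differences of the other 5 enzymes lay between -0.18 (Agpat2) and 0.04 (Dgat2), with adjusted p of 0.759 to 0.948.

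The difference between the effects of both deletions was tested directly as an interaction in the same fit, ChREBPβ effect minus total ChREBP effect. It was called for 3 of 10 enzymes, and for 23.2% of all genes. The fall of Gpd1 was smaller in ChREBPβ-deficient mice, by 0.52 on the log2 scale (SE 0.10, adjusted p = 0.000511). For Dgat1, with effects of -0.09 without β and 0.79 without both isoforms, the interaction was -0.87 (SE 0.16, adjusted p = 0.000415). For Lpin3, with effects of 0.11 and 0.95, it was -0.85 (SE 0.17, adjusted p = 0.000889). With slides as fixed blocks none of the 3 was called (0.42 for Gpd1, -0.89 for Dgat1 and -0.48 for Lpin3, at adjusted p of 0.19, 0.0636 and 0.238). With the adipocyte list in the fit Gpd1 was called (0.59) and Dgat1 (-0.40, adjusted p = 0.348) and Lpin3 (-0.49, adjusted p = 0.292) were not. For Gpam and Lpin1 the interaction did not pass the test. It was 0.01 for Gpam (95% CI -0.41 to 0.43, adjusted p = 0.984) and 0.22 for Lpin1 (95% CI -0.11 to 0.55, adjusted p = 0.349). The second probe of Agpat3 had a called interaction of 0.46 (adjusted p = 0.0136) that the brightest one did not (0.09, adjusted p = 0.714).

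The WT mice of both lines also differed in some of these enzymes, so the lines did not start from the same levels. WT mice of the ChREBPβ line against those of the total ChREBP line gave 3 of 10 calls, on an array where 45.9% of genes were called. Lpin3 was higher by 0.78 (SE 0.11, adjusted p = 4.47e-06), with arrays at 9.42 to 9.95 against 8.73 to 9.22 that did not overlap, as for 17% of all genes. Dgat2 was higher by 0.27 (SE 0.06, adjusted p = 0.00032), with arrays at 17.96 to 18.29 against 17.73 to 18.00. The Dgat2 call was lost in 4 of 18 other settings of processing or fit, with both scalings to the 75th percentile in place of quantile normalization (0.09 and 0.08, adjusted p = 0.442 and 0.532), with the adipocyte list (0.15) and with the lymphocyte and muscle lists (0.12). Lpin1 was lower, with a log2 difference of -0.27 (SE 0.11, adjusted p = 0.0447). This last call was lost without any 1 of 9 mice (WT replicates 3 to 7 of the total ChREBP line and WT replicates 1, 3, 6 and 7 of the ChREBPβ line), at adjusted p of 0.0604 to 0.111, and held in 10 of 18 other settings of processing or fit, where that of Lpin3 held in 16. Gpd1 and Agpat1 were level between the lines at their brightest probes, with differences of 0.00 (95% CI -0.13 to 0.14) and 0.00 (95% CI -0.18 to 0.17), although the coding Gpd1 probe was lower, with a log2 difference of -0.48 (adjusted p = 0.0196). Gpam, at -0.30 (adjusted p = 0.0758), passed the threshold without replicate 1 of the total ChREBP WT mice (-0.39) or replicate 8 of the ChREBPβ-line WT mice (-0.37). This comparison and that of total ChREBP-KO mice share the same 7 WT mice. In Lpin3 they were the mice with low levels in both. Within wash batches, which held 1 to 3 arrays of either WT group, the difference ran from 0.69 to 0.94 for Lpin3. It ran from 0.15 to 0.37 for Dgat2 and from -0.50 to -0.01 for Lpin1. Lymphocyte markers were called lower in the WT mice of the ChREBPβ line for 15 of 15 genes (7.21 to 8.27 against 10.89 to 12.54), and brown or beige markers for 7 of 8. Adipocyte markers were called higher for 9 of 13 (15.45 to 15.64 against 14.83 to 15.32) and macrophage markers for 7 of 10 (12.36 to 13.45 against 11.48 to 12.93). The brown or beige list was at 9.57 to 11.24 against 11.29 to 13.52. Since the lymphocyte, adipocyte and brown or beige lists did not overlap between these WT groups, their levels and the line cannot be told apart. No enzyme was called with the lymphocyte and muscle lists in the fit, which for this reason cannot show the part of cell makeup. That part was otherwise not tested.

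Around the 10 enzymes, the list of other genes of the pathway held 34 genes on the array, of which 33 were tested. In total ChREBP-KO mice, 20 of 33 were called higher and 2 lower, with a median log2 difference of 0.41, on the array where 25.8% of all genes were called higher and 20.1% lower. Enzymes that make glycerol 3-phosphate by other routes or oxidize it again showed the widest range, from -3.27 to 2.73. Gpd2, the mitochondrial enzyme that turns glycerol 3-phosphate back to dihydroxyacetone phosphate, was at 10.06 to 10.50 in KO and 13.09 to 13.90 in WT mice, a difference of -3.27 (SE 0.14, adjusted p = 1.04e-14). Pck1, the enzyme of glyceroneogenesis, was at 16.38 to 16.72 in KO and 13.19 to 14.27 in WT mice, a difference of 2.73 (SE 0.17, adjusted p = 6.35e-12). Neither gene overlapped between groups, as for 14.8% of all genes. Of the 6 genes on this route, 4 were called higher and 1 lower.

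The acyltransferase step of Gpam has other enzymes, and 2 of 3 of these rose. Agpat9, the older name on the array for Gpat3, a glycerol-3-phosphate acyltransferase of the endoplasmic reticulum, was at 15.54 to 16.03 in KO and 13.02 to 13.94 in WT mice. The difference was 2.27 (SE 0.12, adjusted p = 3.06e-13), against -0.35 for Gpam. In Agpat9 the WT mice of the ChREBPβ line also lay above those of the total ChREBP line, by 1.15 (adjusted p = 7.96e-08). Those 2 groups did not overlap, as for 17% of all genes. Of 4 acyl-CoA synthetases tested, which activate the fatty acids, 2 rose and 1 fell. Acsl1, the main adipocyte isoform, was at 17.05 to 17.47 in KO and 15.63 to 16.08 in WT mice. The difference was 1.40 (SE 0.08, adjusted p = 1.91e-12). In Acsl1, too, the WT mice of the ChREBPβ line lay above those of the total ChREBP line without overlap, by 0.68 (limma adjusted p = 4.69e-07). Whether low levels in the WT mice of the total ChREBP line have a part in the rise was not tested. Acsl5 was at 10.67 to 10.90 in KO and 11.00 to 12.62 in WT mice. Its difference was -1.18 (SE 0.16, adjusted p = 1.5e-06). The other tested Acsl5 probe, A_66_P105542, was not called, with a difference of 0.12 (adjusted p = 0.135). At the brightest Acsl5 probe, WT mice of the ChREBPβ line were also lower than those of the total ChREBP line. That difference was -0.91 (adjusted p = 4.01e-05), with overlap. Whether the fall of Acsl5 reflects the deletion or high levels in these WT mice was not tested. Of the further groups, called genes were all higher. They were 2 of 3 other lysophosphatidic acid acyltransferases, 2 of 5 phosphatases and lipin regulators, 2 of 2 acyltransferases of the monoacylglycerol route, 3 of 4 droplet assembly genes and 3 of 6 genes of the phospholipid branch. Aqp7, the glycerol channel, is on both this list and that of adipocyte markers. In ChREBPβ-deficient mice 0 of 33 were called in limma, 6 of 33 passed an unadjusted p of 0.05 (7.8% of all genes), and the median was 0.04. The lowest adjusted p of the list was that of Pck1 (0.211), at 14.68 to 16.28 in deficient and 14.27 to 14.94 in WT mice. The interaction was called for 16 of 33 (23.2% of all genes), higher in 2 and lower in 14, and between the WT mice of both lines 16 of 33 were higher and 5 lower (45.9% of all genes were called).

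The genes most like each enzyme over the 26 arrays were named as a description, since the 4 groups alone can align genes and 17356 genes were compared. Gpd1 was closest to Ank (Pearson's r 0.976), which encodes a pyrophosphate transporter. Dgat1 was closest to Pdpr (0.957), a regulatory subunit of pyruvate dehydrogenase phosphatase, and Lpin1 to Fdx1 (0.919), a mitochondrial ferredoxin. Lpin3 was closest to Pxdn (0.934), Dgat2 to Tmem18 (0.939), Agpat3 to Sccpdh (0.915), Agpat1 to Gpr108 (0.891), Gpam to Pgm3 (0.872) and Agpat2 to Prdx3 (0.864). Lpin2 had the weakest best match, 2610524H06Rik (0.686).

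Sequence before the start sites was held in RefSeq's table (GRCm38.p6) for 12 start sites of 7 of the 10 genes. ChREBP binds with its partner Mlx to paired E-box-like elements, so the 250 bases before each start were searched on both strands for the E-box CACGTG and for the paired carbohydrate response element, with any base at its ambiguous positions, which can contain the E-box. The E-box was in 1 of 12 windows, against 6.02% of 32851 windows of all genes, and the paired form in 0 of 12, against 0.454%. The window with the match belongs to Lpin2, whose level did not pass the test. Its last 30 bases, at chr17:71183502-71183531 on the plus strand, are shown with the E-box in capitals.
Lpin2: cggcgggggcggagctcgcgtCACGTGgcc
The windows of Lpin1 and Lpin3, which changed in opposite directions, held neither form.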

How the data were processed

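The authors extracted spot intensity values (linear scale) with Agilent Feature Extraction 10.10.1.1, and the deposited scanner files hold them with quality calls. A series table deposited by the authors holds log2 values. Values were recomputed from the median spot intensity. Spots with an outlier call were dropped, the median over replicate spots was taken, and log2 values were quantile normalized. The study's methods put the quantile step before the median. The order used here gave back the deposited log2 table, with a 99th percentile of absolute differences of 0.00052, against 0.068 with the quantile step first, and was chosen after seeing this. A probe was kept if it passed the scanner's calls (found, significant, well above background) on 21 of 26 arrays or 75% of a group, which left 38832 probes of 25407 genes.

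A model with 4 group means was fitted with limma 3.58.1 in R 4.3.3, with Benjamini-Hochberg adjustment over all tested probes, and was run on simulated data. The simulated arrays had independent noise, few changed probes and no shifts in cell makeup. They do not test the fit where many probes differ, as between total ChREBP-KO mice and their WT mice. The 10 enzymes and the gene lists were chosen with earlier results of these data known. Named were all 10 enzymes by their brightest probe, other probes where they differed, Mlxipl, the 3 largest rises and falls among called pathway genes in total ChREBP-KO mice (only 2 fell), pathway genes called in ChREBPβ-deficient mice and the most similar gene of each enzyme. Alternatives covered scaling, background, filters, blocks for replicate number, wash batch and slide, array weights, marker levels and leaving out each array. Mice came from several litters per the study's methods, and the labels do not tie arrays to litters, so p-values measure the spread between these mice.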

Additional observations from a re-analysis of the deposited data

Results flagged for a closer look

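The effect of the deletion on Gpd1 differed between the lines by 0.52 on the log2 scale (ChREBPβ effect minus total ChREBP effect, limma interaction). KO mice did not overlap WT mice in the total ChREBP line, and they did in the ChREBPβ line. The effect on Dgat1 differed by -0.87 and that on Lpin3 by -0.85. Both genes were called higher in the total ChREBP line, and in the ChREBPβ line their differences were -0.09 and 0.11, which did not pass the test. With slides as fixed blocks none of the 3 was called, at 0.42 for Gpd1, -0.89 for Dgat1 and -0.48 for Lpin3, and with the adipocyte list Dgat1 (-0.40) and Lpin3 (-0.49) were not. For Lpin3 the levels of the WT mice differed between the lines by 0.78, and for Dgat1 by 0.17, which did not pass the test.

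A single array lay far from the rest of its group. Replicate 3 of the WT mice of the ChREBPβ line had a Dgat2 level of 17.96, while the other 6 arrays lay between 18.16 and 18.29. Its gap was 0.61 of the range of the group, above the 95% critical value of Dixon's test for 7 arrays. It was the only such array in 40 groups examined, and chance gives about 1 in 20.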

How the results depend on the processing

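In total ChREBP-KO mice 6 enzymes were called, 3 with slides as fixed blocks and 2 with the adipocyte list as a covariate, and 4 to 6 with 1 array left out. More were called with a background correction (normexp), 8 (4 higher, 4 lower), and with array weights, 7 (4 higher, 3 lower). With the quantile step before the median of replicate spots, the order the methods state, 4 were called, without Gpam (-0.26) and Agpat3 (-0.16). The called signs turned with the brown or beige list, a covariate chosen after the data were seen, for Gpam (0.18) and Agpat3 (0.08), and for Lpin1 between the WT mice of both lines (0.33). In ChREBPβ-deficient mice 0 were called under every alternative run. The interaction had 3 calls, 0 with slides as fixed blocks, 1 with the adipocyte list, 5 with the brown or beige list and 3 to 5 with 1 array left out, where the 5 came without replicate 7 of the ChREBPβ-line WT mice. WT mice of both lines gave 3 calls, 1 with either scaling to the 75th percentile, 0 with the lymphocyte and muscle lists, 1 with the adipocyte list and 2 to 4 with 1 array left out. The causes of these shifts were not tested, beyond the fewer degrees of freedom that 15 slides leave. Over all probes, calls in total ChREBP-KO mice were 17667, and 2089, 5409 and 8432 with the adipocyte list, the lymphocyte and muscle lists and slides as fixed blocks. Between WT mice they were 17644, and 7165, 1354 and 10678 with the adipocyte, the lymphocyte and muscle, and the brown or beige lists. For the interaction they were 8755, and 1679, 2264 and 616 with the adipocyte list, the lymphocyte and muscle lists and slides as fixed blocks. In ChREBPβ-deficient mice they were 15, with 0 (slides as fixed blocks) to 60 (array weights) over other processing or fits, 106 without KO replicate 4, of which 63.2% were higher against 13.3% of the 15, 55 without WT replicate 7, and 2 to 27 without any other array. The share of calls that were higher between WT mice was 56.5%, and 43.9% with the median intensity scaled to the 75th percentile. The interaction needs all 4 groups, so it was not computed in the fits on only the groups compared. Among single enzymes and comparisons under other processing or fits, 655 values kept their side of the threshold, and their direction where called. Another 36 lost a call, 16 gained one and 3 with a call turned direction. With 1 array left out 624 kept their side, 26 lost a call, 10 gained one and 0 with a call turned. Values uncalled both times were counted as kept whatever their direction, and 74 of all 1370 values were uncalled both times with another sign.

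Mice share replicate numbers across KO and WT, so the number was tried as a replicate block, which gave 6, 0, 3 and 3 calls in the total ChREBP, ChREBPβ, interaction and WT comparisons, as without it. Deviations of same-numbered mice correlated between -0.35 and 0.51, over 0.1 in 4 of 10 pairs, so the numbers were not taken to pair the mice.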

Other observations

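The 6 Lpin2 probes, which the array files assign to 5 different transcripts, did not move together between the WT mice of both lines. Probe A_55_P2621779 was lower in the ChREBPβ line, at -0.27 (limma adjusted p = 0.002), and probe A_55_P2072872 was higher, at 0.18 (limma adjusted p = 0.0451), while the other 4 lay between -0.21 and 0.03 and were not called. Both called probes were dim, with mean log2 levels of 5.445 and 5.252 against 9.881 for the brightest Lpin2 probe, and no background was subtracted. Whether their differences reflect levels of single transcripts was not tested. None of the 6 was called in either KO comparison.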
